A study of Homo sapiens with 3 samples.

Results

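The BCL2 family decides whether a stressed cell releases cytochrome c from its mitochondria and dies by apoptosis. Expression of 10 of its genes was compared between the parental bladder cancer line 5637 (5637P) and its gemcitabine-resistant derivative (5637GR). The genes were chosen by symbol and by the known role of their proteins, and all 10 were found among the 29960 genes of the deposited table. They comprised 3 pro-survival genes (BCL2, BCL2L1 and MCL1), 2 effector genes (BAX and BAK1) and 5 BH3-only genes (BID, BIK, BBC3, PMAIP1 and BCL2L11). Pro-survival proteins hold the effectors in check at the outer mitochondrial membrane. BH3-only proteins respond to stress signals by occupying the pro-survival proteins or by activating the effectors directly, and the effectors then form pores in the membrane. Gemcitabine, a deoxycytidine analog, stalls DNA replication, and cells that cannot tolerate this stress commonly die through the mitochondrial pathway.

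5637 is an established human line from a muscle invasive bladder carcinoma. By the methods, 5637GR cells were obtained through repeated gemcitabine exposure at rising concentrations and then kept without the drug, whereas the labels call the treatment acute. RNA came from single-cell clones, 3 per group by the paper, and the labels give parental cells as wild type and both groups as untreated at harvest. Read counts and FPKM were used for the 3 labelled libraries, 5637P clone 1 and 5637GR clones 1 and 2, together with the authors' group means of normalized counts. The authors' means carry no SD and include the same 3 libraries, so they are no independent measurement. Each clone gave 1 library, and a difference between groups cannot be told apart from a difference between single clones.

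Reads counted on genes ranged from 14475531 to 17461941 per library. Counts were scaled to CPM, the reads of a gene relative to the effective library total, with TMM factors of 0.970 to 1.03, so that 3 reads, taken as the floor, correspond to 0.172 to 0.214 CPM. Intervals of ratios between 2 libraries cover counting error only. Of 11 epithelial and urothelial markers, 9 exceeded 1 CPM in each library and UPK3A, a uroplakin of the mature urothelium, had no reads in any. Their summed level was 10046 CPM in 5637P clone 1 and 7510 and 7637 CPM in 5637GR clones 1 and 2. The basal keratin KRT5 was read at 273 CPM in 5637P clone 1 and at 9.80 and 13.8 CPM in 5637GR clones 1 and 2. Its edgeR log2 fold change was -4.53 ± 0.36 (SE; adjusted p = 0.00133). The authors' group means of KRT5, 11544 and 2047 normalized counts, were 5.64-fold apart. Their log2 ratio of -2.49 was smaller in size than the difference in the 3 libraries. The 5 blood cell markers summed to 0.570 to 1.26 CPM and 3 of 4 endothelial markers, those in the table, to 0.427 to 2.01 CPM. Of 5 fibroblast markers 4 were in the table, and they summed to 145 to 173 CPM, all but traces of it from the collagens COL1A1 and COL1A2, while LUM had no reads. The part of these levels in the values of the members was not tested. In bulk RNA, fewer cells that express a gene and less RNA per cell cannot be told apart.

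No member passed the test between 5637GR and 5637P. The test was edgeR's quasi-likelihood test on 1 parental and 2 resistant libraries, with a two-sided adjusted p threshold of 0.05 over the 16187 genes that had at least 0.5 CPM in 1 library or more, and all 10 members were among them. In the same fit 0.179% of genes were called higher and 0.531% lower in 5637GR. DESeq2 on the same libraries also called 0 of the 10 members. At an unadjusted p under 0.05 edgeR passed 1 of 10 members, BCL2L11, beside 9.66% of all genes. The spread in this fit comes from the 2 resistant libraries and is moderated across genes, so the single parental library is assumed to vary like them. An exact permutation of 1 against 2 libraries could not give a p below 0.333.

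By sign, MCL1, BAK1, BBC3 and PMAIP1 were higher in both 5637GR clones than in 5637P clone 1, and BCL2L11 was lower in both. These counts of 4 and 1 of 10 stand beside 34.7% and 34.9% of all genes. The other 5 members lay on both sides of the parental library. The median log2 fold change was 0.18 over the members and 0.02 over all genes tested. The plot of CPM by library shows that the spread between the 2 resistant clones was as wide as the distance from the parental library for several members.

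**Figure D1:**
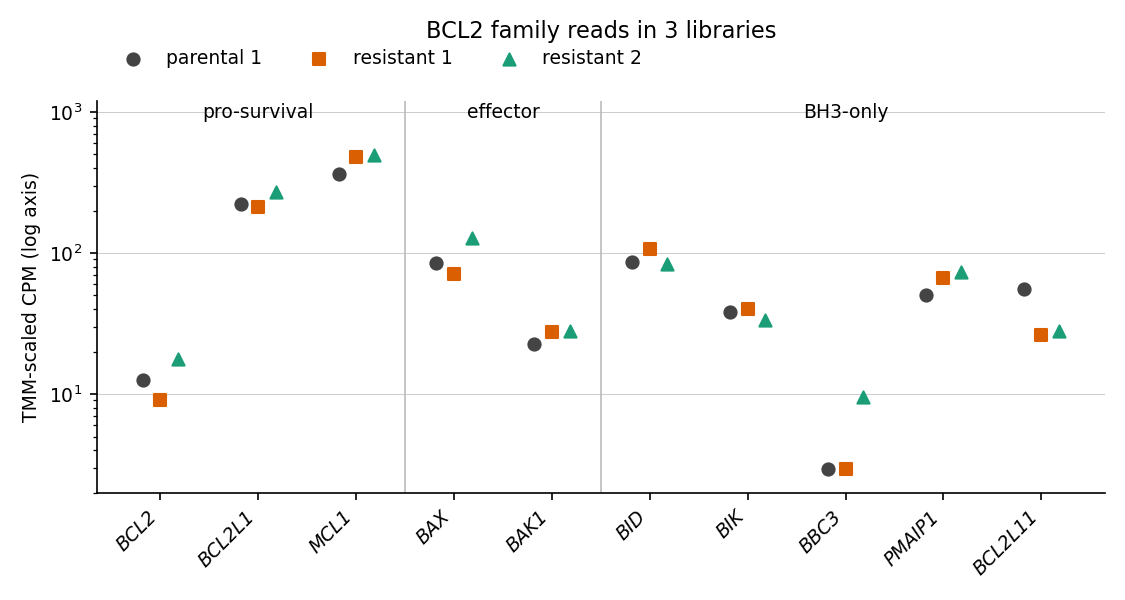
TMM-scaled CPM of each member on a log axis, with 1 point per library (5637P clone 1 as circles, 5637GR clones 1 and 2 as squares and triangles). BCL2L11 is lower in both resistant clones (26.3 and 27.8 CPM) than in the parental clone (55.3 CPM), and BBC3 is high in resistant clone 2 alone (9.57 CPM).

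BCL2L11 encodes BIM, a BH3-only protein that binds all pro-survival members and can activate BAX and BAK directly. The gene (ENSG00000153094) lies on chromosome 2, plus strand, at 111876955 to 111926024 in the coordinates of the table, for which the submitters' processing notes name hg19. It was read at 55.3 CPM in 5637P clone 1 (777 reads), 26.3 CPM in 5637GR clone 1 (429 reads) and 27.8 CPM in 5637GR clone 2 (486 reads). Both resistant clones were low and close to each other, and the parental library stood apart from them. The parental level was 2.11 times that of 5637GR clone 1 (95% counting interval 1.87 to 2.37) and 1.99 times that of clone 2 (1.77 to 2.23). The 2 resistant clones differed by a ratio of 1.06 (0.929 to 1.21), which was within counting error. The edgeR log2 fold change was -1.03 ± 0.34 (SE; 95% interval -1.81 to -0.25), and its p was 0.015 before and 0.358 after adjustment. DESeq2 gave -1.02 with an adjusted p of 0.462.

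BCL2L11 was also the only member with both 5637GR clones at least 1.5-fold below 5637P, a size that 9.67% of all genes reached, whereas no member had both clones at least 1.5-fold above it (10.5% of all genes). The authors' group mean was 719.4 normalized counts in 5637P and 422.8 in 5637GR, a parental level 1.70 times higher. In the group means 1 of 10 members, BCL2L11, was at least 1.5-fold lower (10.1% of all genes). The difference in the group means (log2 ratio -0.77) was smaller than in the 3 libraries.

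The bases before the start of BCL2L11 are shown because it was the member that lay furthest below the parental level, together with those of BAX and BBC3, the 2 members on chromosome 19, which both differed between the resistant clones. The sequences are the 250 bases before the RefSeq start on GRCh38.p14, which is not the build of the table. They lie at chr2:111120664-111120913 (plus strand) for BCL2L11, chr19:48954625-48954874 (plus strand) for BAX and chr19:47232668-47232917 (minus strand) for BBC3. Capitals mark matches, on either strand, to a forkhead (FOXO) motif, GTAAACA, an E-box, CACGTG, and a GC box, GGGCGG. 1 match of the E-box in BAX directly follows the GC box after a single base, and no matches overlap.
BCL2L11: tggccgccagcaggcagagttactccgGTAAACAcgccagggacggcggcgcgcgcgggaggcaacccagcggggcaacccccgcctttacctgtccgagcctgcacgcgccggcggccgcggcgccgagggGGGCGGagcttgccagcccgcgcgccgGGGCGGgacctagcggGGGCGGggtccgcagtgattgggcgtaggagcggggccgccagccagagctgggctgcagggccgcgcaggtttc
BAX: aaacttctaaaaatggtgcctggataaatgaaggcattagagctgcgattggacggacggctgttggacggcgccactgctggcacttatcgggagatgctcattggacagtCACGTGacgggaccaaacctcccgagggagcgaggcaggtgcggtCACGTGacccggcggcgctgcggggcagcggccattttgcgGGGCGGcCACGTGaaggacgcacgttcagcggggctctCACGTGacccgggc
BBC3: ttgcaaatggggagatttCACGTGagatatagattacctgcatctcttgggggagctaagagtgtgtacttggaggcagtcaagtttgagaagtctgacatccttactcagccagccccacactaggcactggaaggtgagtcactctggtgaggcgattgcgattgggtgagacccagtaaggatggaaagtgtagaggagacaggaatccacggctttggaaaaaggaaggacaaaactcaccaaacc

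In BCL2L11 the FOXO match began 223 bases before the start and GC boxes began 118, 91 and 75 bases before it. FOXO factors are known activators of BCL2L11. Of all 35116 promoter windows of the same length in the RefSeq table, 2.98% held the FOXO letters, 6.34% the E-box and 42.6% the GC box. BAX held 4 E-boxes, which began 138, 93, 45 and 14 bases before the start, and BBC3 held 1 at 232 bases. Of the 10 members, 8 had an entry in this table, MCL1 and BIK being without one. These 8 genes had 13 windows, so some had more than 1. The FOXO letters were present in 1 of these genes, the E-box in 3 and the GC box in 5. These counts are per gene, whereas the shares above are per window. A match of letters is a description and not evidence of binding. The transcript of FOXO3 itself was read at 203.6 CPM in 5637P and at 193.6 and 177.0 CPM in the 5637GR clones (adjusted p = 0.962, edgeR). FOXO1 was read at 5.27 CPM in 5637P and at 4.10 and 6.25 CPM in the 5637GR clones (adjusted p = 0.996, edgeR). The activity of FOXO proteins was not measured here, and a link to the BCL2L11 level was not tested.

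Among the pro-survival genes, MCL1 encodes a short-lived protein that sequesters BIM, NOXA and BAK. MCL1 (ENSG00000143384, chromosome 1, 150547032 to 150552066, minus strand) was read at 361.5 CPM in 5637P clone 1 and at 482.3 and 495.4 CPM in 5637GR clones 1 and 2. The 2 resistant clones were alike, with a ratio of 1.03 (95% counting interval 0.996 to 1.06), and both lay above the parental clone, by 1.33-fold (1.29 to 1.38) and 1.37-fold (1.32 to 1.42). The group means were 5500 and 6866 normalized counts in 5637P and 5637GR, in the same direction. The difference of 0.44 ± 0.36 on the log2 scale (SE; 95% interval -0.38 to 1.25) did not pass the test (adjusted p = 0.806, edgeR). This interval leaves room for a modest decrease and for a level more than 2-fold higher.

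BCL2L1 encodes BCL-XL, which restrains both effectors. BCL2L1 (ENSG00000171552, chromosome 20, 30252255 to 30311792, minus strand) was read at 223.6 CPM in 5637P clone 1, 212.0 CPM in 5637GR clone 1 and 268.5 CPM in 5637GR clone 2. The parental library lay between the 2 resistant clones. The log2 fold change was 0.10 ± 0.35 (SE; 95% interval -0.69 to 0.90; adjusted p = 0.974, edgeR), and the group means were 3035 and 3186. The table also holds RP11-243J16.7, typed as antisense, and AL160175.1, typed as protein coding, on the opposite strand of BCL2L1, each with at most 3 reads in a library. Whether the libraries kept strand is not settled by the protocol, which describes both kinds.

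BCL2, the founding member of the family, was low in these cells. BCL2 (ENSG00000171791, chromosome 18, 60790579 to 60987361, minus strand) was read at 12.7 CPM in 5637P clone 1 (178 reads), 9.06 CPM in 5637GR clone 1 (148 reads) and 17.8 CPM in 5637GR clone 2 (311 reads). The resistant clones lay on either side of the parental clone, and clone 2 held 1.97 times the level of clone 1 (95% counting interval 1.61 to 2.41). The log2 fold change of 0.09 ± 0.50 (SE; adjusted p = 0.986, edgeR) and the group means of 194.7 and 197.2 were both close to no difference. A gene inside its intron, RP11-28F1.2, had at most 1 read in a library.

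Of the effectors, BAX moves from the cytosol to the mitochondria upon activation, whereas BAK resides there. BAX (ENSG00000087088, chromosome 19, 49458072 to 49465055, plus strand) was read at 85.2 CPM in 5637P clone 1, 70.6 CPM in 5637GR clone 1 and 127.8 CPM in 5637GR clone 2. Clone 1 was thus below and clone 2 above the parental library, and clone 2 held 1.81 times the level of clone 1 (95% counting interval 1.69 to 1.95). The log2 fold change of 0.22 ± 0.42 (SE; 95% interval -0.72 to 1.16) did not pass (adjusted p = 0.94, edgeR), and the group means were 1185 and 1357.

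BAK1 (ENSG00000030110, chromosome 6, 33540329 to 33548019, minus strand) was read at 22.5 CPM in 5637P clone 1 and at 27.7 and 28.1 CPM in 5637GR clones 1 and 2. The 2 resistant clones were close, with a ratio of 1.02 (95% counting interval 0.893 to 1.16), and both lay above the parental clone. The log2 fold change was 0.31 ± 0.38 (SE; 95% interval -0.54 to 1.16; adjusted p = 0.892, edgeR), and the group means were 340.6 and 393.4. The effectors thus gave no call in either direction, and only BAX differed between the resistant clones.

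The remaining BH3-only genes are induced or activated by different signals. PMAIP1 encodes NOXA, a stress-induced protein that binds MCL1. PMAIP1 (ENSG00000141682, chromosome 18, 57567180 to 57571538, plus strand) was read at 50.6 CPM in 5637P clone 1 and at 66.2 and 73.3 CPM in 5637GR clones 1 and 2. Both resistant clones were above the parental clone and differed from each other by 1.11-fold (95% counting interval 1.02 to 1.20). The log2 fold change of 0.46 ± 0.35 (SE; 95% interval -0.32 to 1.25) did not pass (adjusted p = 0.766, edgeR), and the group means were 731.0 and 907.2. PMAIP1 and its binding partner MCL1 therefore had like differences, 0.46 and 0.44 on the log2 scale.

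BBC3 encodes PUMA, a protein induced by DNA damage that binds all pro-survival members. BBC3 (ENSG00000105327, chromosome 19, 47724081 to 47736023, minus strand) was read at 2.92 CPM in 5637P clone 1 (41 reads), 2.94 CPM in 5637GR clone 1 (48 reads) and 9.57 CPM in 5637GR clone 2 (167 reads). Only clone 2 was high, at 3.25 times the level of clone 1 (95% counting interval 2.35 to 4.59) and 3.28 times that of the parental clone (2.32 to 4.73). Clone 1 did not differ from the parental clone beyond counting error (1.01-fold, 0.65 to 1.57). The log2 fold change of 1.10 ± 0.74 (SE; 95% interval -0.57 to 2.77) was the largest positive value among the members and had the largest error (adjusted p = 0.717, edgeR). In the group means, with a resistant to parental ratio of 1.54, BBC3 was the only 1 of 10 members at least 1.5-fold higher (11.1% of all genes). Without 5637GR clone 2 the log2 difference of the libraries was 0.01.

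BID, which caspase-8 cleaves to link death receptors to mitochondria, and BIK, an endoplasmic reticulum protein, showed little difference. BID (ENSG00000015475, chromosome 22, 18216906 to 18257536, minus strand) was read at 86.0 CPM in 5637P clone 1 and at 106.4 and 84.1 CPM in 5637GR clones 1 and 2. BIK (ENSG00000100290, chromosome 22, 43506754 to 43525718, plus strand) was read at 38.1 CPM in 5637P clone 1 and at 40.1 and 33.5 CPM in the 5637GR clones. For both genes the parental library lay between the resistant clones, and clone 2 was lower than clone 1, by a ratio of 0.790 for BID (95% counting interval 0.736 to 0.847) and 0.836 for BIK (0.746 to 0.936). Their log2 fold changes were 0.15 ± 0.35 and -0.05 ± 0.36 (SE), with adjusted p of 0.96 and 0.989 (edgeR). The group means were 1171 and 1324 for BID and 462.6 and 430.8 for BIK.

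**Figure D2:**
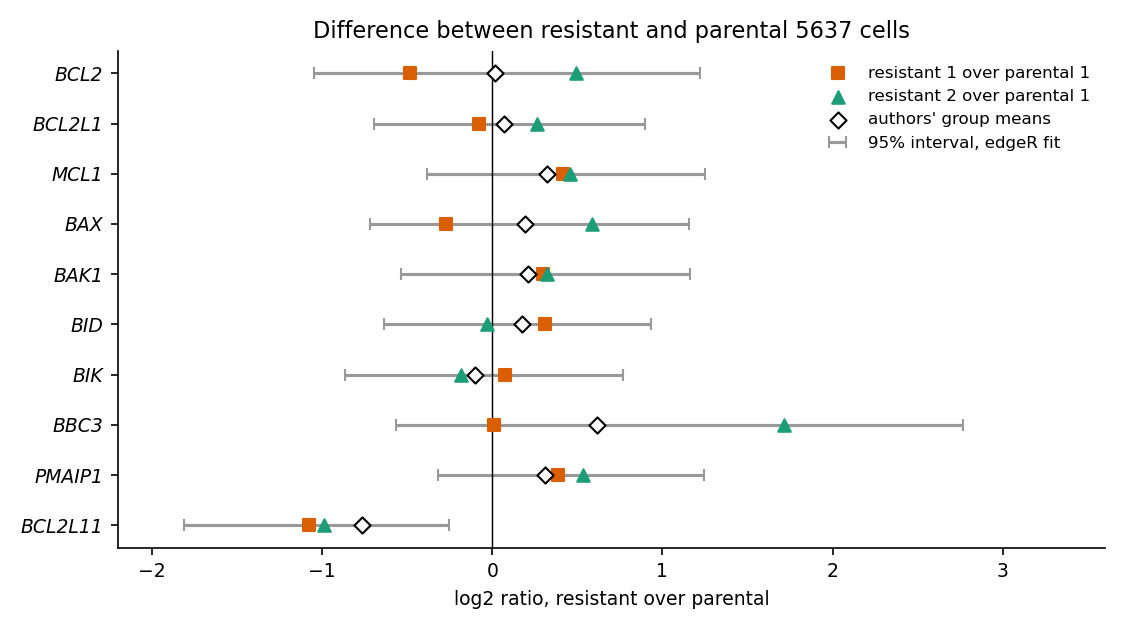
Log2 ratio of resistant over parental for each member, as each 5637GR clone over 5637P clone 1 (squares and triangles, TMM-scaled CPM), as the authors' group means (open diamonds) and as the 95% interval of the edgeR fit (bars). The bar of BCL2L11 alone stays on one side of 0 (-1.81 to -0.25), a difference whose adjusted p was 0.358.

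Next, the 2 resistant clones were compared with each other, without a test, since each is 1 library. This comparison was added after the values had been seen. Clone 2 was at least 1.5-fold above clone 1 for 3 of 10 members, BCL2, BAX and BBC3, beside 18.2% of all genes. No member was at least 1.5-fold lower in clone 2 (14.4% of all genes). BCL2L11, MCL1, BAK1 and PMAIP1 were alike in both clones, with ratios of 1.02 to 1.11.

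The genes around each member were read beside it, as expressed genes (mean of the 2 group means at least 10) within 5 Mb on each side. For ratios between libraries 0.1 CPM was added to each value. BAX and BBC3 start 1.73 Mb apart on chromosome 19 and share 196 of these neighbours. The neighbours of BAX had a median log2 ratio of clone 2 over clone 1 of 0.57 and those of BBC3 of 0.65, and chromosome 19 as a whole, with 1085 expressed genes, of 0.56, against -0.02 over all 14630 expressed genes. BAX, at 0.86, lay above 160 of its 236 neighbours and below 76. BBC3, at 1.67, lay above 218 of 230. Both were thus higher in clone 2 than in clone 1, as was the stretch of genes around them, and BBC3 stood near its upper end. Relative to the parental library, the median log2 ratio of the BAX neighbours was -0.27 in clone 1 and 0.17 in clone 2. For the BBC3 neighbours these medians were -0.31 and 0.28. The stretch was thus below the parental level in clone 1 and above it in clone 2. The part of the chromosome in these values was not tested, and copy number was not measured here.

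BCL2 differed in this respect. The 24 neighbours of BCL2 on chromosome 18 had a median of 0.04 between the clones, whereas BCL2 was at 0.97 and above 23 of them. BCL2 and PMAIP1 start 3.22 Mb apart and share 21 neighbours, and PMAIP1 was at 0.15 between the clones.

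Between 5637GR and 5637P, in the group means, the 52 neighbours of BCL2L11 had a median log2 ratio of -0.37, compared with -0.77 for BCL2L11, which lay above 9 and below 43 of them. Chromosome 2 as a whole, with 987 expressed genes, had a median of 0.05. In both 5637GR clones the median of these neighbours was -0.29, and 31 of 52 were lower than in the parental library in both clones. The lower BCL2L11 level thus came with lower levels of the genes around it, of smaller size. The part of this stretch in the BCL2L11 value was not tested.

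BCL2L1 showed the opposite arrangement. Its 75 neighbours on chromosome 20 had a median of -0.28 in the group means, while BCL2L1 stood at 0.07 and above 67 of them. Chromosome 20 as a whole, with 370 expressed genes, also had a median of -0.28. MCL1, at 0.32, lay above 130 of 157 neighbours, whose median was 0.02, and PMAIP1, at 0.31, above 26 of 30, whose median was 0.04. BID (0.18, neighbours 0.37) and BIK (-0.10, neighbours -0.33) lie on chromosome 22, where the genes around BID were higher and those around BIK lower in 5637GR. BAK1, at 0.21, was close to the 0.13 of its 150 neighbours.

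**Figure D3:**
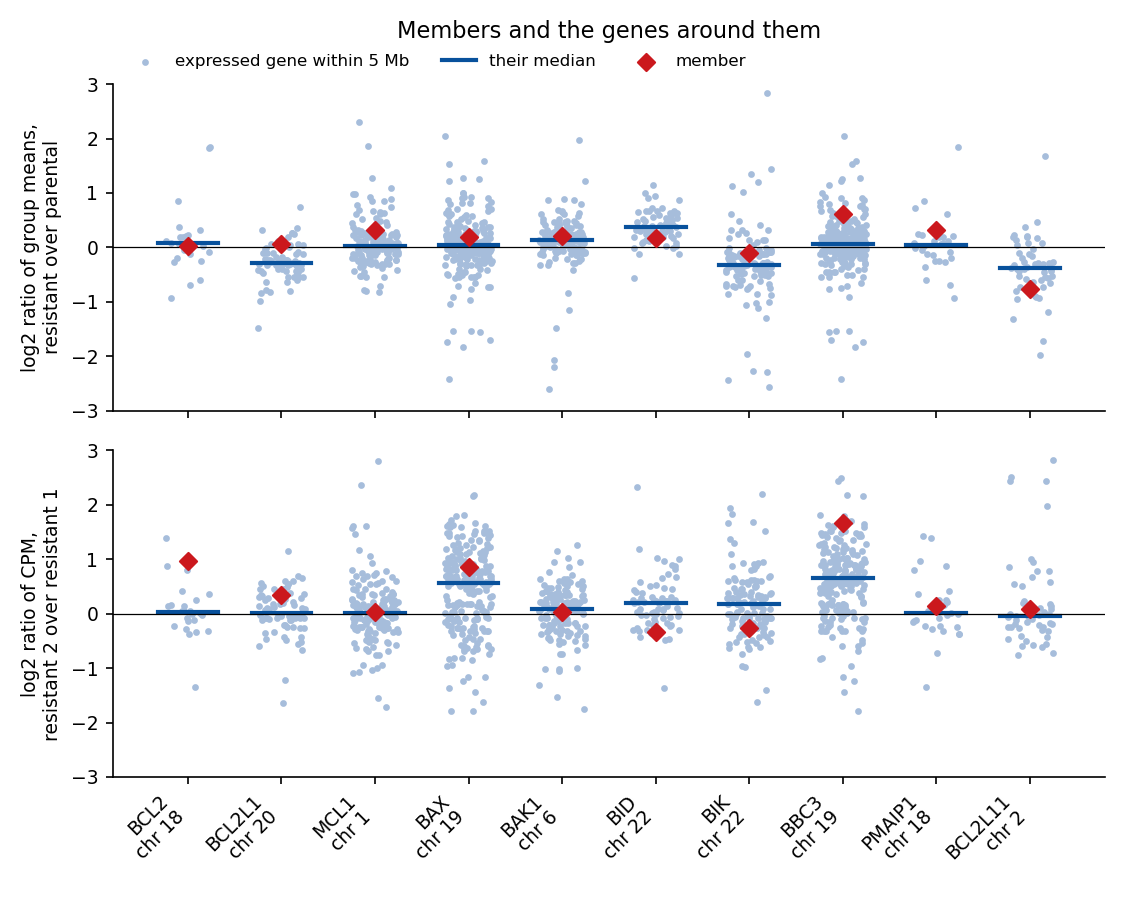
Log2 ratios of each member (diamonds), of the expressed genes within 5 Mb (points) and their median (lines), for the group means of resistant over parental (top) and for CPM of 5637GR clone 2 over clone 1 (bottom, with 0.1 CPM added for the neighbours and members). The axes end at 3, beyond which 1 point in the top and 8 points in the bottom panel are not drawn; on chromosome 19 the median between the clones lies at 0.57 for BAX and 0.65 for BBC3, and BCL2L11 lies below the median of -0.37 in the top panel.

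Levels of different members were compared per length, by the deposited FPKM. In each of the 3 libraries the order began with MCL1, BCL2L1 and BAX. MCL1 stood at 89.2, 126 and 126 FPKM in 5637P clone 1 and 5637GR clones 1 and 2, and BCL2L1 at 83.1, 83.8 and 103 FPKM. MCL1 and BCL2L1 were thus nearly equal in the parental library, with a ratio of 1.07, and further apart in the resistant ones, with ratios of 1.51 and 1.22. BAX followed at 60.9, 53.6 and 94.1 FPKM.

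BID, BIK and PMAIP1 took the next places, between 25.2 and 44.0 FPKM, in an order that changed from library to library. BCL2L11 ranked above BAK1 in the parental library, at 10.6 against 10.2 FPKM, and below it in both resistant libraries, at 5.33 against 13.4 and 5.47 against 13.2 FPKM. BCL2 and BBC3 were lowest, with BCL2 at 1.25 to 2.39 FPKM and BBC3 at 1.54 to 5.20 FPKM. BCL2 contributed 0.592% to 1.03% of the summed FPKM of the 3 pro-survival members, and nearly all of this sum was MCL1 and BCL2L1. MCL1 made up 51.3% of the sum in 5637P clone 1 and 59.8% and 54.5% in 5637GR clones 1 and 2. The sum leaves out family genes that are not members. Among these BCL2L2, named after its values were seen, stood above BCL2 in each library, at 9.89, 6.39 and 8.55 FPKM.

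The level of MCL1 relative to BCL2L11 was 8.45 in the parental library and 23.7 and 23.0 in the resistant ones, in FPKM. Both resistant clones were above the parental one, from a higher MCL1 and a lower BCL2L11 level together. This pair was chosen after its values had been seen and was not tested. Summed over roles, pro-survival genes were at 174, 211 and 231 FPKM and BH3-only genes at 110, 129 and 117 FPKM, a ratio of 1.59, 1.63 and 1.97. Most of the BH3-only sum came from BID, BIK and PMAIP1, and in FPKM the sum was no lower in the resistant libraries. In CPM, which is not corrected for length, the BH3-only sum was 232.9 in 5637P clone 1 and 242.0 and 228.3 in 5637GR clones 1 and 2. The CPM values also include the TMM factors, which the deposited FPKM values do not, so the 2 units differ in library scaling as well. Effector genes summed to 71.1, 66.9 and 107 FPKM, the last through BAX in 5637GR clone 2.

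**Figure D4:**
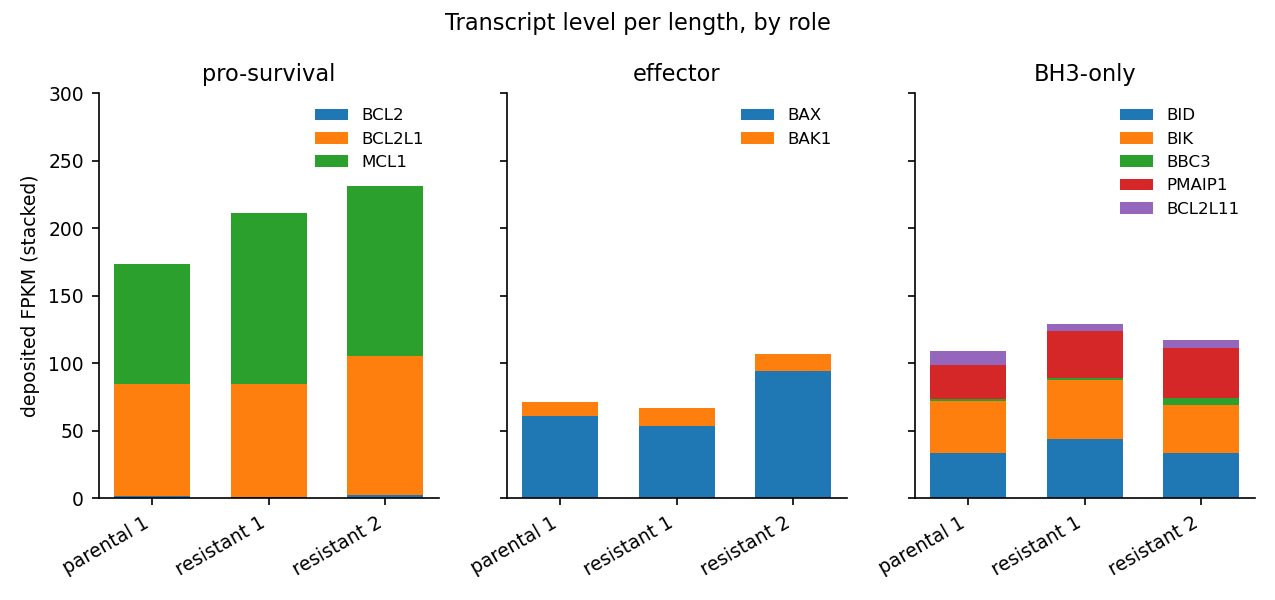
Deposited FPKM of the members stacked by role in each library, with 1 panel for each role and the same linear axis from 0. MCL1 and BCL2L1 make up nearly all of the pro-survival stack and BAX most of the effector stack. BCL2L11 is at 10.6 FPKM in 5637P clone 1 and at 5.33 and 5.47 FPKM in the 5637GR clones.

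The rest of the apoptosis pathway was read from 6 lists of 73 genes in all, of which 66 were expressed enough to be tested. None of the 66 passed the edgeR test after adjustment, nor by DESeq2. At an unadjusted p under 0.05 edgeR passed 6 of 66, 1 of them lower and 5 higher, beside the 9.66% of all genes. The median log2 fold change over the 66 genes was -0.0029. The lists were compiled with earlier results of these data known.

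Of 14 other BCL2 family genes, 11 were tested, with a median log2 fold change of -0.04. Pro-apoptotic BMF, a BH3-only gene known to respond to loss of attachment, was read at 35.2 CPM in 5637P clone 1 and at 21.9 and 18.9 CPM in the 5637GR clones. Both clones and the group means, 466.0 and 302.7, were lower. BMF, like HRK and BCL2L10, was named for such a difference, so this is no separate result. The log2 fold change of -0.79 ± 0.37 (SE) did not pass (adjusted p = 0.555, edgeR). The BH3-only gene HRK was low, with 24, 7 and 18 reads (1.71, 0.429 and 1.03 CPM; adjusted p = 0.686). BCL2L10, a pro-survival homolog, had 17, 5 and 5 reads, and its p of 0.0472 became 0.509 after adjustment (edgeR). The group means in 5637P and 5637GR were 27.1 and 7.49 for HRK, 3.62-fold apart. For BCL2L10 they were 22.1 and 6.01, 3.68-fold apart. Of the 11 tested genes of this list, these 3 had both clones at least 1.5-fold lower, beside 9.67% of all genes tested. BCL2A1, another pro-survival gene, had at most 3 reads in a library.

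Death receptor genes, which feed the extrinsic pathway that BID joins to mitochondria, had 4 of 13 tested members higher at an unadjusted p under 0.05, FAS, TNFRSF10A, TNFRSF10C and TNFRSF10D, beside 4.6% of all genes. The list median log2 fold change was 0.20. FAS, the receptor of FAS ligand, was read at 4.84 CPM in 5637P clone 1 and at 14.9 and 10.8 CPM in the 5637GR clones (log2 1.41 ± 0.49 SE, adjusted p = 0.393, edgeR). The group means of FAS, 91.2 and 158.3, were 1.74-fold apart. The TRAIL receptor genes lie side by side on chromosome 8. Among them TNFRSF10D, a decoy receptor, was read at 13.95, 33.7 and 35.01 CPM (log2 1.30 ± 0.39 SE, adjusted p = 0.288, edgeR). TNFRSF10A, a signalling receptor named after its values were seen, was read at 27.5, 63.4 and 56.5 CPM (adjusted p = 0.337, edgeR). The group means were 261.7 and 398.0 for TNFRSF10D, 1.52-fold apart, and 494.2 and 738.2 for TNFRSF10A, 1.49-fold apart. For both genes this was smaller than the difference in the 3 libraries. TNFRSF10B, which lies beside them and was also named after its values were seen, was read at 94.8, 139.8 and 162.8 CPM (adjusted p = 0.597, edgeR). Its group means were 1518 and 1977, 1.30-fold apart.

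TNFRSF10C, a further decoy receptor, had 2 reads in 5637P clone 1, which is under the floor, and 41 and 39 reads in the 5637GR clones. The ratio to the parental clone was 17.6 (95% counting interval 4.58 to 151) in clone 1 and 15.7 (4.06 to 134) in clone 2, and its adjusted p was 0.16. The group means of 4.14 and 23.0 normalized counts were 5.56-fold apart. FAS, TNFRSF10A, TNFRSF10C and TNFRSF10D were picked by their values, so their being higher in both clones is no separate result. None of them passed the test. Over the 13 tested genes of the list, 7 were higher and 4 lower in both clones, beside 34.7% and 34.9% of all genes. Among the lower ones, named after their values were seen, TNFRSF1A, a TNF receptor, was read at 118.1, 79.2 and 86.2 CPM (adjusted p = 0.697, edgeR). TNFSF10, which encodes TRAIL, was read at 2.14, 1.71 and 0.229 CPM (30, 28 and 4 reads; adjusted p = 0.782, edgeR). For TNFSF10, clone 1 did not differ from the parental clone beyond counting error (0.803-fold, 95% counting interval 0.462 to 1.39). The group means of TNFSF10 were 31.9 normalized counts in 5637P and 13.3 in 5637GR, 2.40-fold apart.

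Of the 16 mitochondrial release and caspase genes, all were tested, none had an unadjusted p under 0.05 and 11 were lower by sign, beside 48.2% of all genes, with a median of -0.14. In both clones 8 were lower and 2 higher, beside 34.9% and 34.7% of all genes. Their median log2 ratio to the parental library was -0.08 in clone 1 and -0.39 in clone 2. Of 5 tested inhibitors of apoptosis, BIRC3, named after its values were seen, was read at 21.4, 42.7 and 46.6 CPM (adjusted p = 0.393, edgeR). The group means of BIRC3, 361.5 and 517.9, were 1.43-fold apart, less than in the 3 libraries. The other 4 inhibitors had a larger unadjusted p, and the list median was 0.17. The 14 transcription factors known to act on BCL2 family genes had a median of 0.06, and the 7 tested ubiquitin ligases and deubiquitinases of MCL1 and its relatives had a median of 0.15. None of these 21 genes had an unadjusted p under 0.05.

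**Figure D5:**
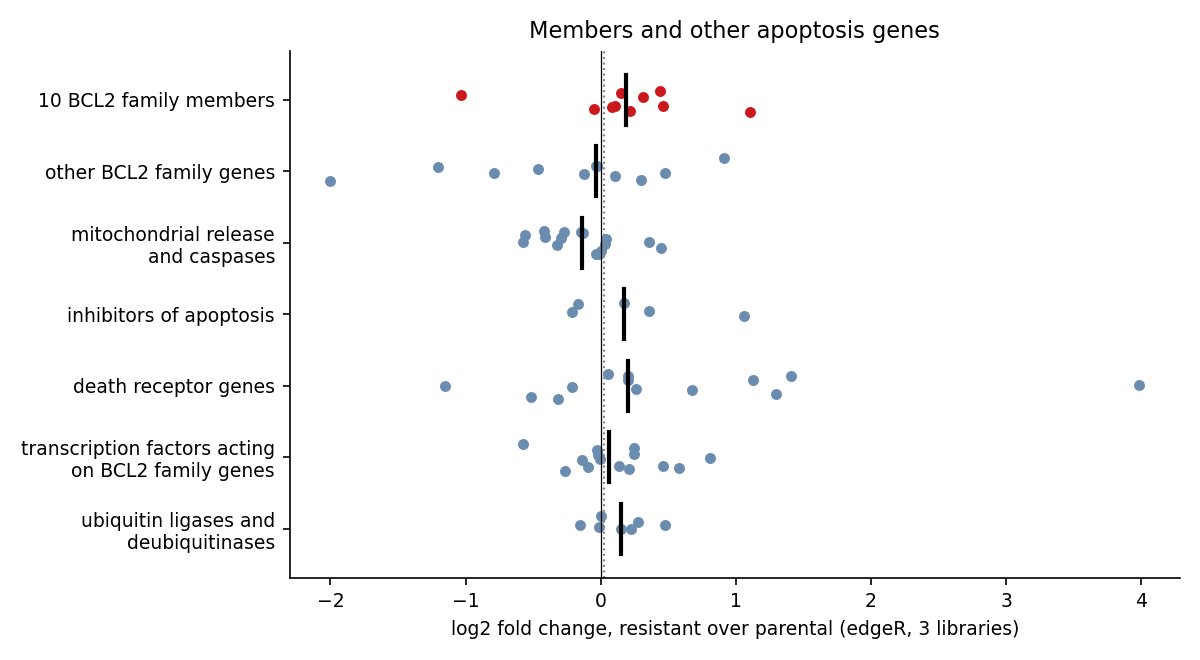
Log2 fold change of resistant over parental in the edgeR fit for the 10 members and for the tested genes of the 6 lists, with 1 point per gene, a black line at each median and a dotted line at the median of all genes (0.02). The point at 3.99 among death receptor genes is TNFRSF10C, with 2 reads in the parental library, and no point passed the adjusted threshold.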

How the data were processed

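RNA of single-cell clones was sequenced from poly-A-selected libraries. The labels name CASAVA 1.8 and hg19, and the aligner and counter are not given in the sources used here. The authors deposited a raw read count and an FPKM value (reads relative to transcript length and library total) for each library. They also deposited group means of normalized counts, a signal without spread, and DESeq2 log2 fold changes and p-values, which were not used. Also left out were 6 per-library columns with no matching label.

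Groups were parental (1 library) and resistant (2 libraries). Counts were tested with edgeR 4.0.16 (R 4.3.3; TMM, quasi-likelihood F-test, Benjamini-Hochberg adjustment), with 1 residual degree of freedom and a median of 9.00 after moderation, for genes with at least 0.5 CPM in 1 library. SE is the size of the log2 fold change over the square root of F. Alternatives used DESeq2 1.42.0, RLE factors, no filter, edgeR's legacy fit and single clones left out. Log2 ratios of group means had 1 added to each mean. Scripts were tested on simulated data (Python 3.11.15, pandas 2.3.3, scipy 1.17.1). Named genes were all members, and list genes past the adjusted threshold or with both clones and the group means at least 1.5-fold apart in one direction. Genes named outside this rule are BCL2A1, FOXO1, FOXO3, KRT5 and those said to be named later. The members and lists were chosen with earlier results of these data known. Beside the 6 lists reported, a further list was compiled and is not reported here.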

Additional observations from a re-analysis of the deposited data

How the results depend on the processing

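The number of members called was 0, and that of pathway genes 0, with RLE factors, without the filter on low counts, with DESeq2 and with edgeR's legacy fit. The number of all genes called was 115 (29 higher, 86 lower) and changed to 0 without the filter, 251 (127 higher, 124 lower) with DESeq2, 239 (97 higher, 142 lower) with the legacy fit and 77 (16 higher, 61 lower) with RLE factors; the cause was not tested. Members at least 1.5-fold apart in both clones numbered 1, and 0 at 2-fold, and 1 to 2 with a resistant clone left out. With clone 1 or clone 2 of 5637GR left out, the log2 difference ranged from -0.48 to 0.49 for BCL2, -0.077 to 0.26 for BCL2L1, -0.27 to 0.58 for BAX, -0.033 to 0.31 for BID and -0.18 to 0.075 for BIK, so that each direction rests on 1 clone, clone 1 for BID and clone 2 for the other 4. With 1 library a side these are values with no test. With a 2 Mb window the neighbour median turned to -0.033 for BCL2 and -0.0085 for MCL1. Taken from the 3 libraries and not from the authors' means, the log2 ratio was 0.44 for MCL1, 0.31 for BAK1, 0.46 for PMAIP1 and -1.03 for BCL2L11. By CPM, which does not correct for length, MCL1 took 60.5%, 68.6% and 63.4% of the sum of the pro-survival members. BCL2L1 took 37.4%, 30.1% and 34.3% of it, and BCL2 2.12%, 1.29% and 2.28%. Other pseudocounts and centring kept each member's direction in the group means. By the paper the clones of each group were derived independently, so replicate numbers were not taken as pairs and no paired analysis was made. Among the tested members and list genes named, depth limits BBC3, HRK, BCL2L10, TNFRSF10C and TNFSF10, with under 50 reads in the parental library.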
